A study of Rattus norvegicus with 14 samples.

Results

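The step from day 18 to day 28 of postnatal life was examined in the rat epididymis, the coiled duct in which spermatozoa leaving the testis mature and are stored. The 4 pools titled day 28 were set against the 4 pools titled day 18, 8 of the 14 pools of a series that also holds 3 pools at day 7 and 3 at day 60. Each pool was whole epididymides of Sprague-Dawley rats with no transgene, drug or surgery in the labels, frozen after dissection, and its total RNA was measured on 1 Affymetrix RatGene 2.0 ST array. Day 28 rats were given food and water freely, whereas day 18 rats were still with their lactating mothers, so age and the change of diet at weaning cannot be told apart. The labels do not give the number of animals in a pool, and pools of whole organs mix epithelium, muscle, stroma, vessels, nerves, immune cells and luminal content, so that fewer cells of a type and less RNA per cell cannot be told apart. If pools shared animals, the spread between them would be partly technical.

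The epididymal epithelium consists mainly of principal cells, which secrete proteins into the lumen and take up fluid, together with proton-secreting clear and narrow cells and a layer of basal cells on the basement membrane. Secreted proteins pass through the endoplasmic reticulum and Golgi before release, and many of them, such as lipocalins, beta-defensins and cysteine-rich secretory proteins, bind to sperm. The epithelium is known to differentiate before sperm reach the duct, under androgens in the blood and factors in the fluid from the testis. The wall carries smooth muscle that moves sperm along, and a mesothelium covers the organ.

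All 18166 genes with a transcript cluster of a single symbol were tested, and levels are given on the log2 scale of the deposited signals, where a difference of 1 is 2-fold. Signals at or under 5.02, the 95th percentile of 1344 olfactory and vomeronasal receptor genes, were taken as background, and folds that start or end there are of uncertain size. The ages were separated on the first principal component of the 8 pools, which held 59.3% of the variance, with scores of -32.05 to -23.70 at day 28 and 21.06 to 28.41 at day 18. Replicate 2 of day 28 stood apart on the second component (11.3%), with a score of -25.88 against 7.35 to 14.24 in the other day 28 pools. Its array had a narrower spread of signals (interquartile range 3.28 against 3.46 to 3.53 in the other day 28 arrays), a higher median of receptor genes (3.19 against 2.99 to 3.02) and the lowest weight when arrays were weighted by their fit (0.346). Counts are therefore also given without it. The tissue label was met by the principal cell markers Lcn5, Lcn8, Crisp1, Adam7, Rnase9, Cst8 and Aqp9, 6 of which lay above background at both ages, and their mean level ran from 9.72 to 10.34 in day 28 pools and from 7.81 to 8.13 in day 18 pools. Germ cell markers had a mean level of 4.26 to 4.53 in day 28 pools and 4.06 to 4.23 in day 18 pools, and 6 of the 8 (Prm1, Tnp1, Tnp2, Odf1, Akap4 and Smcp, which mark haploid germ cells) had means under background at both ages. The mean of Prm2, another haploid marker, lay above background at both ages (6.24 ± 0.16 at day 28 and 6.15 ± 0.11 at day 18), and that of Ddx4 at day 28.

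In limma's fit with Benjamini-Hochberg adjustment over all genes, 1899 genes (10.5%) were higher and 2592 (14.3%) were lower at day 28 than at day 18. The median difference of all genes was -0.021. Large rises outnumbered large falls: 283 genes (1.56%) rose at least 2-fold and 110 (0.606%) fell at least 2-fold, and at 8-fold there were 33 rises and 1 fall. The values of the 4 day 28 pools did not overlap those of the 4 day 18 pools for 4815 genes (26.5% of those tested), 1986 of them higher (10.9%) and 2829 lower (15.6%). Without day 28 replicate 2 there were 1938 rises (10.7%) and 2047 falls (11.3%), of which 1715 and 1972 were also called with it, 0 called genes changed sign, and 392 of the 393 calls of at least 2-fold held. The day 18 mean was at or under background for 44 of the 283 rises of at least 2-fold, and the day 28 mean for 14 of the 110 falls. Across gene lists the shares ran from 81.8% of lipocalins that rose to 74.7% of mitosis genes that fell, as the plot of the shares by list shows.

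**Figure D1:**
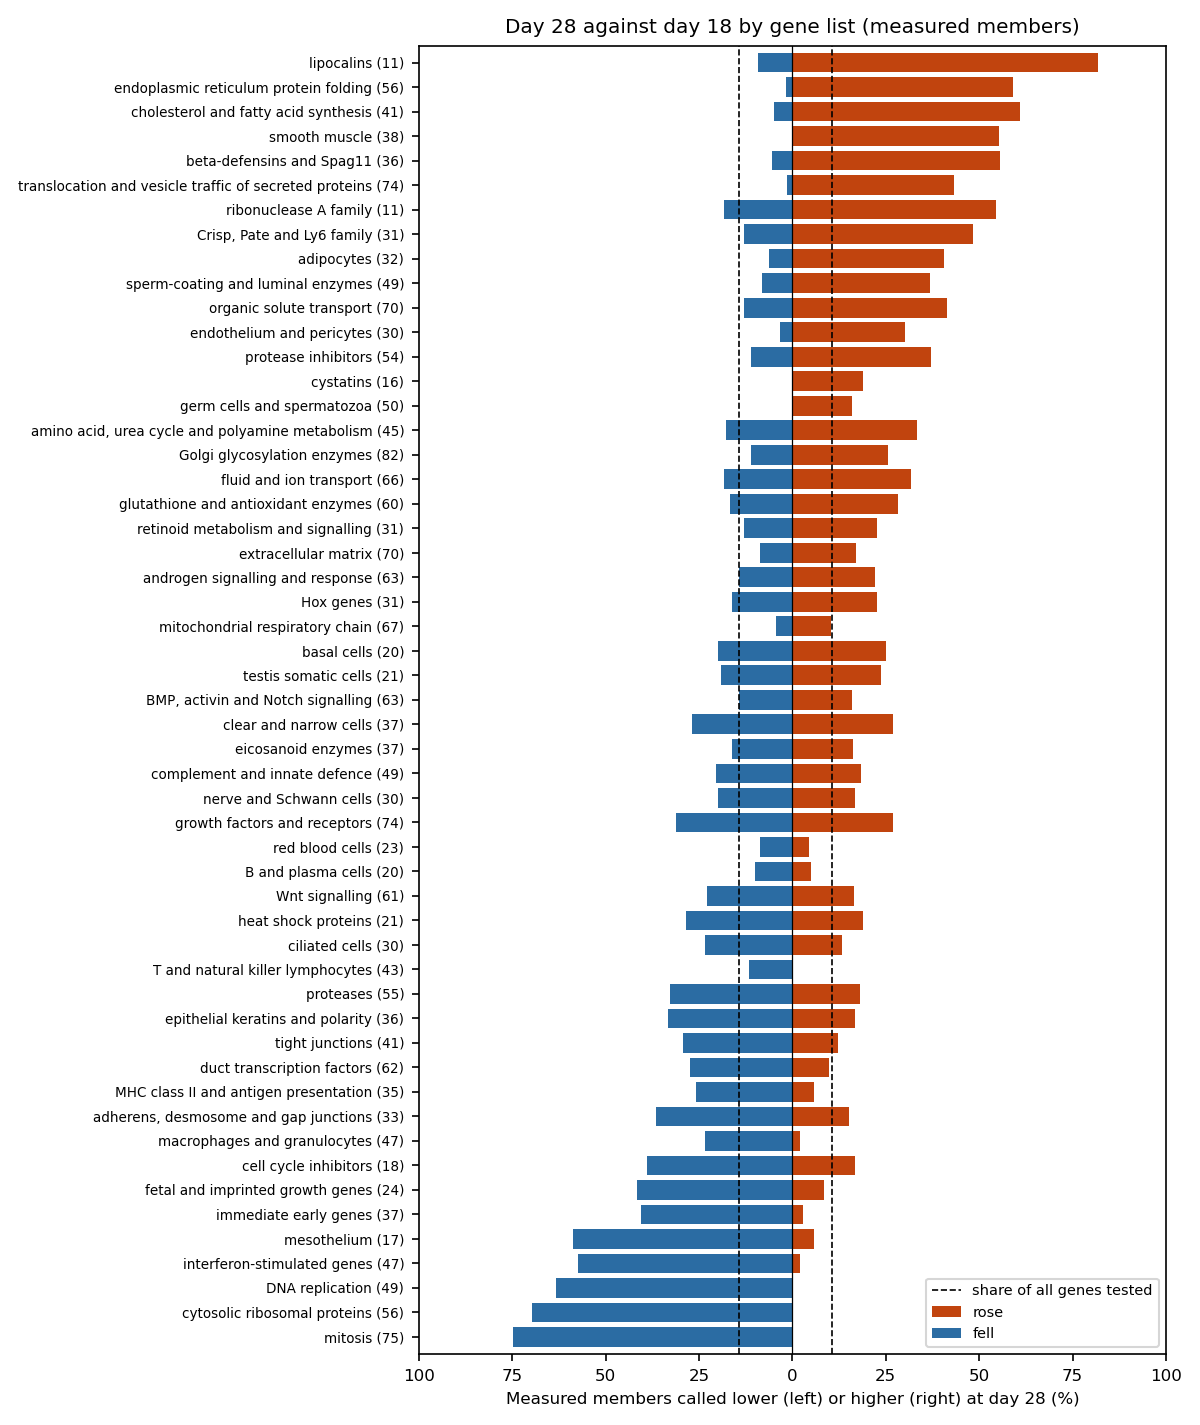
Share of the measured members of each gene list that fell (left, blue) or rose (right, orange) at day 28 relative to day 18, in percent, with the number measured in brackets. The dashed lines mark the shares of all genes tested, 14.3% lower and 10.5% higher; lists of secretion, lipid synthesis and smooth muscle lie at the top and those of cell division, ribosomes and interferon response at the bottom.

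Many of the large rises were of genes that lie beside one another in the genome. In the RefSeq order of the tested genes, 74 of the 281 placed genes with a rise of at least 2-fold (26.3%) were next to another such gene, against 2 of 110 (1.82%) for falls of at least 2-fold. A smaller set has a lower share from its size alone, and the shares for random sets of these sizes were not computed. There were 9 runs of 3 or more neighbours, with 38 genes in all, and 0 such runs of falls. The longest run held 7 genes of the Pate family, which encode small cysteine-rich proteins of prostate and testis that bind sperm: Pate2, Pate3, Pate10, Pate7, Pate6l, Pate5 and Pate14, with differences of 1.37 to 5.96. Of the beta-defensin genes, antimicrobial peptides of which several coat sperm, 20 of 36 rose while 2 fell (55.6% and 5.56%). The falls numbered 1 when any one of day 28 replicates 1, 3 and 4, day 18 replicates 2, 3 and 4, day 7 replicate 1 and the 3 pools of day 60 was left out. Runs of them were Defb23, Defb20, Defb22, Defb26 and Defb28 in one place and Defb41, Defb43, Defb30 and Defb44 in another. A further place joined Crisp1, whose protein coats sperm, to Defb49 and Defb18. The lipocalins Lcn8, Lcn5, Lcn6 and Lcn10 lay in 1 run with Obp2a, an odorant-binding member of that family. The remaining runs were ribonuclease A genes (Rnase10, Rnase9, Rnase11 and Rnase12), serpins (Serpina16, Serpina1f, Serpina1fl2 and Serpina1fl1) and 2 sets of other protease inhibitors (Wfdc11, Spint5p and Wfdc3, and Wfdc6b, Wfdc16 and Wfdc9). In these 2 sets all but Spint5p, a Kunitz-type inhibitor by its symbol, are of the whey acidic protein type. Near-identical neighbours such as the Serpina1f copies can share probes, so their separate values are uncertain.

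**Figure D2:**
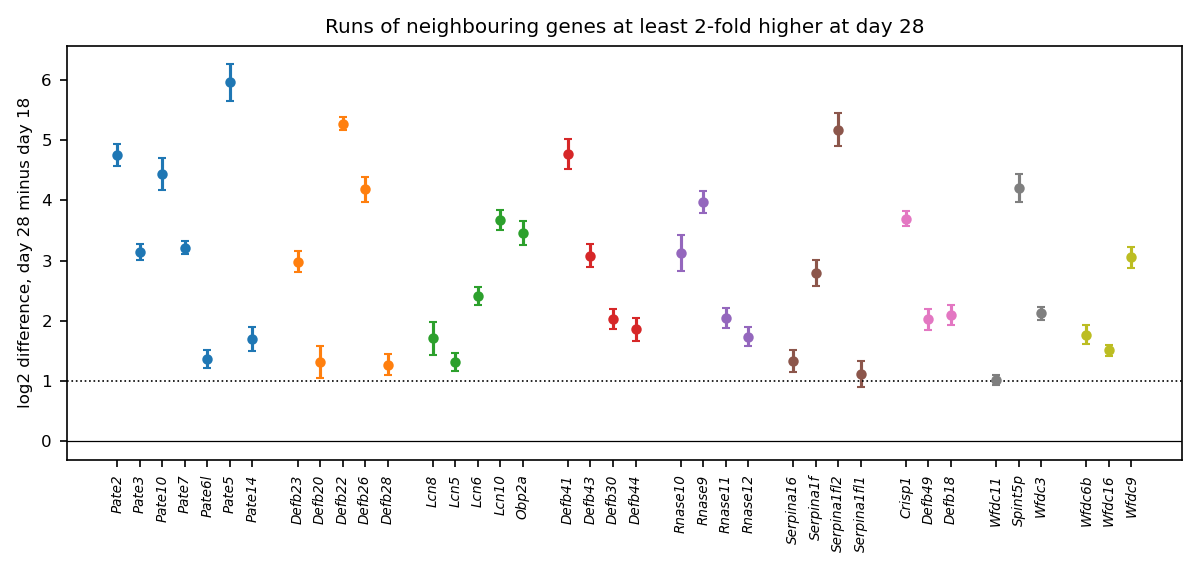
Log2 difference, day 28 minus day 18, of the 38 genes in the 9 runs of neighbours that rose at least 2-fold, in genome order within each run (1 colour per run); points are differences and bars their SE from the fit. The dotted line is 2-fold, and differences within the Pate run reach from 1.37 to 5.96.

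Members of 1 run moved by unequal amounts. Lcn10 had signals of 10.26, 11.03, 10.62 and 11.02 at day 28 and 6.93, 6.84, 7.27 and 7.16 at day 18, each pool listed in the order of its replicate number here and below, a rise of 3.68 ± 0.17 (log2 difference ± SE, adjusted p = 1.85e-09 in limma's fit). The lowest day 28 pool and the highest day 18 pool were 2.99 apart, with day 28 replicate 1 the lowest of its age. Lcn5, in the same run, rose by 1.32 ± 0.15, and Lcn12, another lipocalin, by 2.06 ± 0.093. Lcn2, the iron-scavenging lipocalin of innate defence, was the member of the family that fell, by 0.53 ± 0.10; 9 of 11 rose while 1 fell, with a median of 1.12. Pate14 had signals of 6.36, 5.91, 6.25 and 6.196 at day 28 and 3.87, 4.47, 4.95 and 4.65 at day 18, a rise of 1.69 ± 0.20. All its day 18 pools lay under background and all its day 28 pools above it, and its day 60 mean of 4.31 lay under background too. Of the Crisp, Pate and Ly6 genes 15 of 31 rose while 4 fell (48.4% and 12.9%, median 0.32). The members that fell were Lypd2, Lypd3, Ly6e and Crispld1, of which Lypd2 fell by 1.79 ± 0.12.

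Inhibitors of proteases, which control the processing of proteins in the lumen, had rises in 20 of 54 cases and falls in 6 (37% and 11.1%, against 10.5% and 14.3% of all genes, with a median of 0.17). Serpina1f had signals of 12.44, 12.48, 12.54 and 12.45 at day 28 and 9.73, 9.37, 10.44 and 9.18 at day 18. Day 18 replicate 3 was the highest of its age, and the ages did not overlap. Serpina1f rose by 2.79 ± 0.22 (limma's adjusted p = 3.66e-07), Wfdc9 by 3.05 ± 0.17, Spink10, a Kazal-type inhibitor, by 1.69 ± 0.18, and Serpinf2, the plasmin inhibitor antiplasmin, by 1.69 ± 0.14. Wfdc2 fell by 1.79 ± 0.081 and Wfdc21 by 0.92 ± 0.13. Among proteases 10 of 55 rose while 18 fell (18.2% and 32.7%, median -0.044, and 0.022 without day 28 replicate 2). Those that rose included the membrane-anchored Adam7 (2.63 ± 0.13) and Adam28 (1.92 ± 0.28), Ace, the angiotensin-converting enzyme (1.49 ± 0.095), and Mme, the endopeptidase neprilysin (1.0 ± 0.11). Klk1, tissue kallikrein, fell by 1.22 ± 0.29, the membrane metalloprotease gene Mmp15 by 1.06 ± 0.082 and Ctsc, a lysosomal protease that activates serine proteases of leukocytes, fell by 1.05 ± 0.12.

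Beyond these families the large rises were of diverse function. Lipi, a phospholipase that releases lysophosphatidic acid, had signals of 7.34, 7.56, 7.77 and 8.01 at day 28 and 4.201, 3.75, 4.28 and 4.52 at day 18, a rise of 3.48 ± 0.17 (limma's adjusted p = 2.62e-09). Its day 18 pools were all under background, so the size is uncertain, and the groups did not overlap. Far2, which reduces fatty acyl-CoA to fatty alcohols, had signals of 9.998, 10.09, 10.02 and 10.03 at day 28 and 6.63, 7.13, 7.32 and 6.62 at day 18, a rise of 3.11 ± 0.13. The day 28 pools spanned 0.093 and the day 18 pools 0.70, and the ages lay 2.68 apart. Mfrp, a membrane frizzled-related protein known for its role in the mouse eye, rose by 3.196 ± 0.16, and Grp, the gastrin-releasing neuropeptide, by 3.11 ± 0.11. Rnase13, of the ribonuclease A family, rose by 3.22 ± 0.16; in that family 6 of 11 rose while 2 fell (54.5% and 18.2%), the falls being of Ang and Ang2, the angiogenins. The fall of Ang2 did not pass without day 28 replicate 2 or 3 or without day 18 replicate 1, 2 or 4, each left out in turn (adjusted p 0.0760 to 0.110), which left 1 fall in the family. Muc15, a membrane mucin, had signals of 10.03, 10.36, 10.09 and 10.42 at day 28 and 7.696, 7.67, 7.601 and 7.39 at day 18 and rose by 2.64 ± 0.10. Tex101, a glycolipid-anchored protein of the Ly6 and uPAR family known in mouse from germ cells, had signals of 9.499, 9.52, 9.48 and 9.04 at day 28 and 6.69, 6.14, 7.02 and 6.35 at day 18 and rose by 2.83 ± 0.17. The ages did not overlap in either gene, and all pools lay above background.

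**Figure D3:**
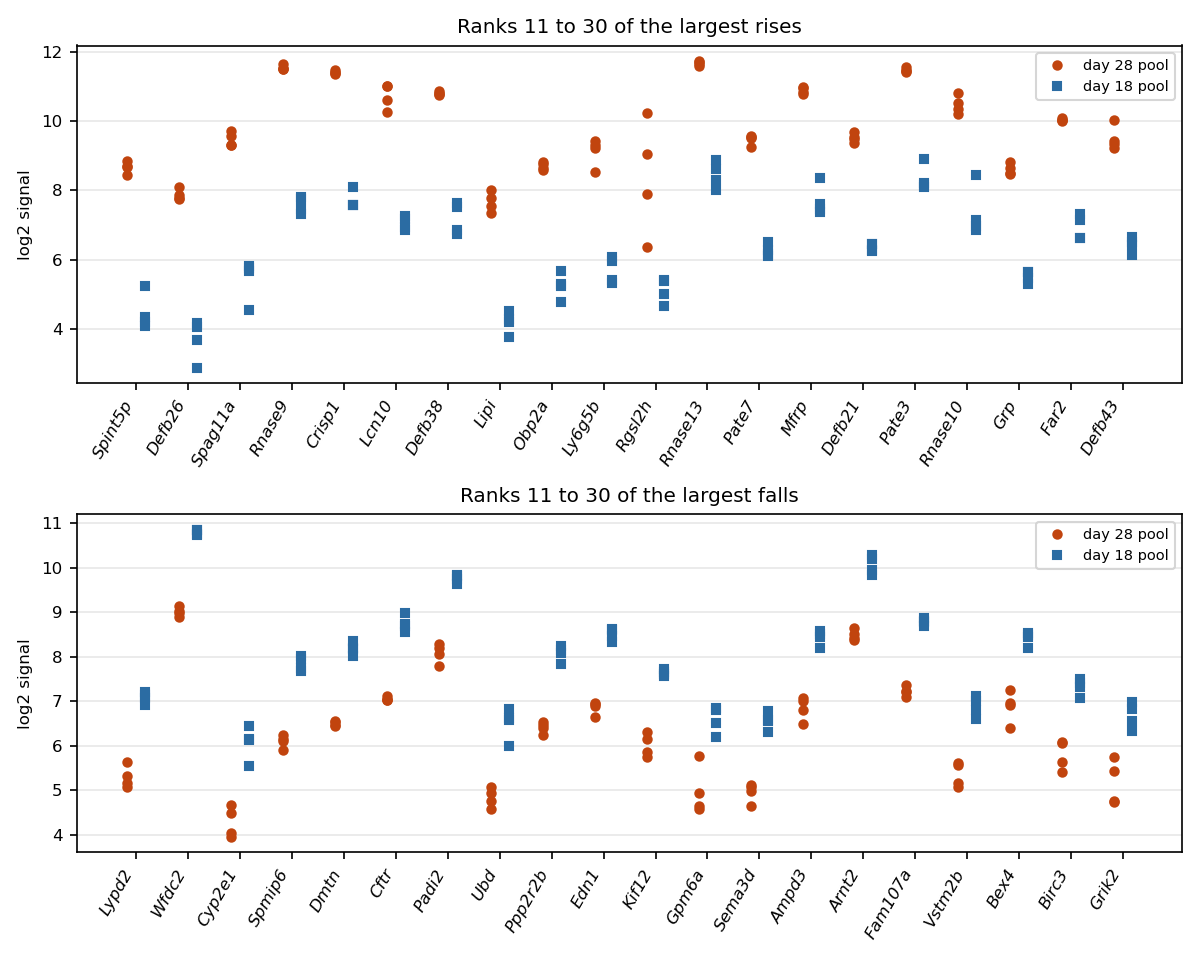
Log2 signal of each pool for the genes ranked 11 to 30 among the largest rises (upper panel) and among the largest falls (lower panel), with the 4 day 28 pools as orange circles left of the 4 day 18 pools as blue squares. The 2 ages do not overlap for any gene shown, which the choice of genes required, and Rgsl2h has the widest day 28 spread, from 6.36 to 10.23.

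Enzymes and other proteins of the lumen had 18 rises and 4 falls among 49 (36.7% and 8.16%), with 2 falls without day 28 replicate 2. Clpsl2, a colipase-like protein, had signals of 9.78, 9.84, 9.89 and 10.16 at day 28 and 5.55, 5.56, 5.58 and 5.62 at day 18 and rose by 4.34 ± 0.098. Among the 5 largest rises of this list were 2 lysosomal glycosidases, which trim sugars from glycoproteins. Glb1 (beta-galactosidase) rose by 1.12 ± 0.073 and Manba (beta-mannosidase) by 1.02 ± 0.096, while 27 of the 49 members did not pass. Mfge8, a milk fat globule protein found on sperm, rose by 1.08 ± 0.071, and Ltf, the iron-binding lactoferrin, by 1.74 ± 0.12. Of the cystatins, inhibitors of cysteine proteases, 3 of 16 rose while 0 fell (18.8% and 0%). The mean level of the list was low, at 4.77 to 5.23 in day 28 pools and 4.46 to 4.56 in day 18 pools, around or under background. Its largest rise, that of Cstdc2, was 5.47 and began under background. The cystatin rises numbered 5 without day 28 replicate 1, 2 without day 28 replicate 2 or 3 or day 18 replicate 2 or 4, and 2 when the 8 pools were fitted alone, and 1 cystatin fell without day 18 replicate 3.

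Some genes differed widely among the day 28 pools. The 15 with the largest SD included olfactory receptor genes, of the class that set the background: Or10ag59, Or10al4c and Or8g51. Of all 1344 receptor genes 36 were called higher and 31 lower at day 28. Rgsl2h, of a family that resembles regulators of G protein signalling, had signals of 6.36, 10.23, 9.04 and 7.89 at day 28 and 5.402, 5.01, 5.38 and 4.65 at day 18, with means of 12.53 at day 60 and 5.22 at day 7. All day 28 pools lay above those of day 18, replicate 1 the least and replicate 2 the most. The difference was 3.27 ± 0.55 (limma's adjusted p = 0.000514, and 0.000662 without day 28 replicate 2). Lcn9, a lipocalin of the proximal duct in mouse, had signals of 4.84, 6.58, 6.24 and 5.097 at day 28 and 4.63, 4.78, 4.58 and 4.29 at day 18, a rise of 1.12 ± 0.29 (adjusted p = 0.011, and 0.0289 without replicate 2). Defb20 had signals of 7.03, 8.57, 8.26 and 7.17 at day 28 and 6.36, 6.23, 6.74 and 6.46 at day 18, a rise of 1.31 ± 0.27. In Rgsl2h, Lcn9 and Defb20, and in Lcn8, the day 28 pools stood in the order replicate 2, 3, 4 and 1. Cst8, a cystatin of the initial segment in mouse, had signals of 3.51, 5.72, 5.31 and 4.07 at day 28 and 3.54, 3.68, 3.96 and 4.15 at day 18; the groups overlapped, and the difference of 0.82 ± 0.37 did not pass (adjusted p = 0.12, but 0.0114 without day 28 replicate 1).

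Ly6g5c, of the Ly6 family, had the same order of day 28 pools, with signals of 8.22, 10.58, 10.36 and 10.095 at day 28 and 4.65, 4.05, 5.13 and 4.896 at day 18, and replicate 1 lay far below the other day 28 pools. Other genes with a wide day 28 spread had other orders. Cstdc2, a cystatin-domain protein, was lowest in the same pool, with 8.48, 10.24, 10.03 and 10.22 at day 28 and 4.09, 4.87, 4.195 and 3.91 at day 18. Defb2 was lowest in replicate 3, with 9.43, 9.25, 7.54 and 8.77 at day 28 and 6.31, 5.65, 5.78 and 6.18 at day 18. Crisp2, a cysteine-rich secretory protein of the acrosome, had signals of 5.68, 4.14, 5.68 and 3.75 at day 28 and 2.600, 2.63, 3.06 and 2.53 at day 18 and rose by 2.11 ± 0.38, with replicates 1 and 3 high and 2 and 4 low, and 2 of the day 28 pools under background. Cmtm2a, of a family of transmembrane chemokine-like proteins, had the same pair high (6.96, 5.600, 6.68 and 5.32 at day 28 and 3.65, 4.15, 3.66 and 4.49 at day 18). Mmp7, the metalloprotease matrilysin, fell by 2.67 ± 0.53 (adjusted p = 0.00195), with signals of 7.75, 5.42, 5.46 and 6.03 at day 28 and 8.23, 8.57, 9.296 and 9.23 at day 18; day 28 replicate 1 was the highest of its age, 0.48 below the lowest day 18 pool.

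**Figure D4:**
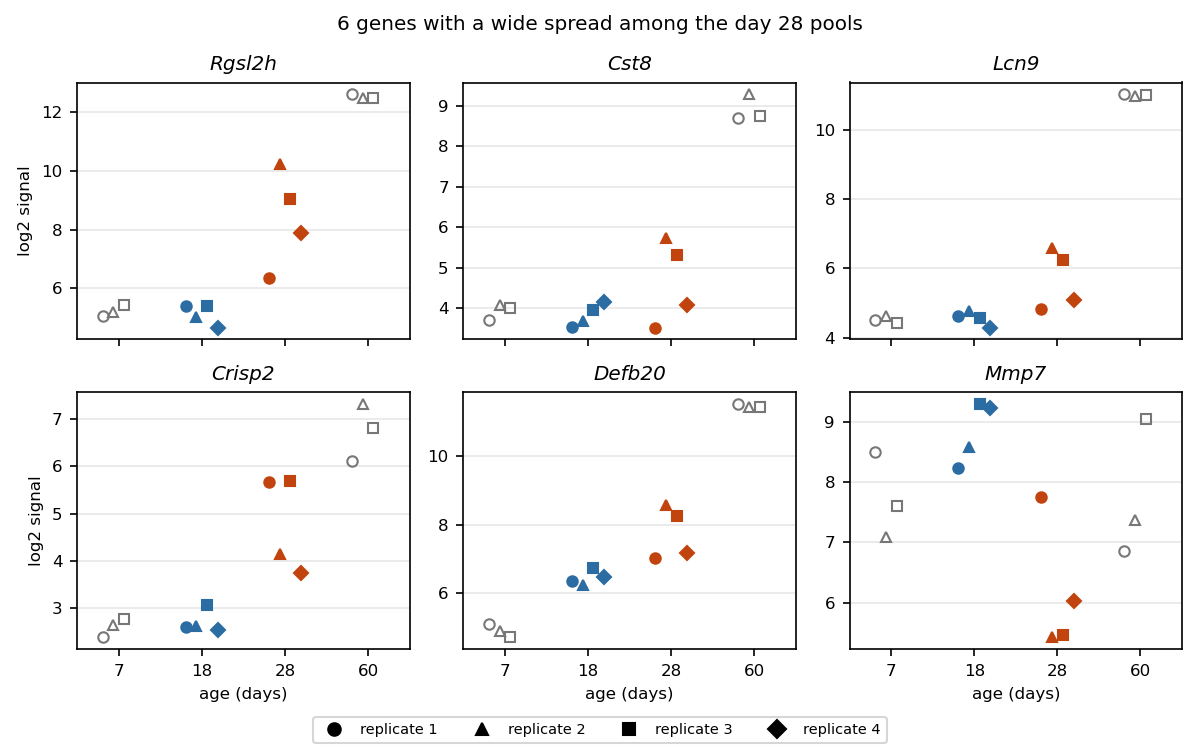
Log2 signal of 6 genes in every pool at days 7, 18, 28 and 60, marked by replicate number; day 28 is orange, day 18 blue and the other ages open grey symbols. In Rgsl2h, Lcn9 and Defb20 the day 28 pools stand in the order replicate 2, 3, 4 and 1 between the day 18 and day 60 levels, and in Mmp7 replicate 1 is the highest of the day 28 pools.

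Genes of the early secretory pathway had many rises and few falls. Of the protein folding genes of the endoplasmic reticulum 33 of 56 rose while 1 fell (58.9% and 1.79%, median 0.29), and without day 28 replicate 2 the counts were 31 and 1. Without day 18 replicate 4 there were 0 falls. Sdf2l1, a cofactor of the chaperone Hspa5, had signals of 9.25, 9.38, 9.37 and 9.397 at day 28 and 8.16, 8.14, 8.65 and 7.92 at day 18, a rise of 1.13 ± 0.12 (limma's adjusted p = 8.36e-06). Creld2, a disulfide isomerase induced by misfolded protein, had signals of 8.47, 8.68, 8.74 and 8.67 at day 28 and 7.85, 7.74, 7.798 and 7.64 at day 18, a rise of 0.89 ± 0.080. The lowest day 28 pool lay above the highest day 18 pool by 0.60 for Sdf2l1 and by 0.63 for Creld2. Fkbp11 (a proline isomerase), Dnajb11 (a cochaperone) and Manf (a neurotrophic factor retained in the reticulum) rose by 0.83 ± 0.082, 0.78 ± 0.081 and 0.77 ± 0.074. The member that fell was Atf3, a stress-induced transcription factor that is also an immediate early gene, by 0.52 ± 0.14, which did not pass without day 18 replicate 4 (adjusted p = 0.0508). Xbp1, the transcription factor of this response, had signals of 11.66, 11.68, 11.62 and 11.65 at day 28 and 11.58, 11.57, 11.56 and 11.57 at day 18; the pools did not overlap, but the difference of 0.079 ± 0.059 did not pass (adjusted p = 0.37, but 0.0481 after quantile normalization), on an array that does not separate the spliced form of its mRNA.

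Known targets of that response carry the endoplasmic reticulum stress element, CCAAT followed by CCACG with 9 bases between them, in their promoters. Promoter windows of 300 bases (250 before and 50 after the start in RefSeq, build GRCr8) were searched on both strands for these letters, which include a CCAAT box. The letters were found in 9 of the 46 folding genes with a window (19.6%), against 21 of all 27457 windows in the table (0.0765%). The 9 were Calr, Canx, Creld2, Derl3, Dnajc3, Ero1b, Hsp90b1, Hspa5 and Xbp1, of which 8 rose and Xbp1 did not pass. Over the whole folding list 33 of 56 rose (58.9%), against 10.5% of all genes. Whether genes with the letters rose more often than those without was not tested, and a match shows no binding in these pools. The rise of Canx did not pass without day 28 replicate 2, 3 or 4 or without day 18 replicate 1, 3 or 4, each left out in turn (adjusted p 0.0548 to 0.0922). The windows of Hspa5 (the main chaperone of the reticulum, a rise of 0.47 ± 0.064), Derl3 (a component of degradation of misfolded protein, 1.59 ± 0.18) and Creld2 are shown because they carry the element in either orientation, in capitals.
Hspa5, GRCr8 chr3:38452766-38453065, plus strand: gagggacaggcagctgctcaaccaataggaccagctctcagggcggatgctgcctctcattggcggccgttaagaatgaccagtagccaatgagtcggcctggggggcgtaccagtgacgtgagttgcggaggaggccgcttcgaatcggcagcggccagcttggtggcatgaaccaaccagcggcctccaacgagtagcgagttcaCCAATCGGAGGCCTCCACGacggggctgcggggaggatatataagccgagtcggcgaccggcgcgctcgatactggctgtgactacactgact
Derl3, GRCr8 chr20:12766416-12766715, minus strand: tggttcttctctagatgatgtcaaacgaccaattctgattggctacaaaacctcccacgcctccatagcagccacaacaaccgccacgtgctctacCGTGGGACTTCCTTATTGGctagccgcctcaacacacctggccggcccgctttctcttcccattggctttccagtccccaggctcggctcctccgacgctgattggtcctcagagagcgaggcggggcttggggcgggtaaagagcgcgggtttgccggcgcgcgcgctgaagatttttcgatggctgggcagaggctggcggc
Creld2, GRCr8 chr7:121789134-121789433, plus strand: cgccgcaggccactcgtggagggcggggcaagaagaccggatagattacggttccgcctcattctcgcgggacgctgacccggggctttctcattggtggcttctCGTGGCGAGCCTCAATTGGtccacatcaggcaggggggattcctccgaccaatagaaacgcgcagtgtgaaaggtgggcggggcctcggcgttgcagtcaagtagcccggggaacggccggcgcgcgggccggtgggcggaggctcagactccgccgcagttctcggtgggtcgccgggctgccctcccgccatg

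The next steps of secretion also had more rises than falls. Of the genes for translocation into the reticulum and vesicle traffic 32 of 74 rose while 1 fell (43.2% and 1.35%, median 0.20). Sec11c, a catalytic subunit of the signal peptidase, had signals of 8.67, 8.96, 8.92 and 8.83 at day 28 and 7.43, 7.53, 7.699 and 7.41 at day 18, a rise of 1.33 ± 0.10 (limma's adjusted p = 3.74e-07). The ages were 0.97 apart at their nearest pools. Uso1, a tether of vesicles at the Golgi, rose by 0.71 ± 0.068, Ssr3, of the translocon-associated complex, by 0.56 ± 0.069 and Tmed6, a cargo receptor, fell by 0.58 ± 0.14. Of the glycosylation enzymes of the Golgi 21 of 82 rose while 9 fell (25.6% and 11%). Galnt5, which starts mucin-type O-glycans, had signals of 8.09, 8.095, 8.03 and 8.17 at day 28 and 5.74, 5.12, 6.01 and 5.58 at day 18, a rise of 2.48 ± 0.15. B3gnt5, which elongates glycolipids, rose by 2.14 ± 0.18, and the sialyltransferases St8sia6 and St6gal1 by 2.05 ± 0.12 and 1.27 ± 0.075. Fut9, a fucosyltransferase, fell by 0.87 ± 0.11 and Galnt18 by 0.82 ± 0.084.

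Lipid synthesis was among the lists with the highest share of rises: 25 of 41 rose while 2 fell (61% and 4.88%, median 0.38). Scd, the desaturase that makes monounsaturated fatty acids, had signals of 11.18, 11.45, 11.04 and 11.46 at day 28 and 8.82, 9.24, 9.44 and 9.501 at day 18, a rise of 2.03 ± 0.14 (limma's adjusted p = 7.04e-08). Tm7sf2 and Ebp, which act late in cholesterol synthesis, rose by 1.32 ± 0.095 and 1.31 ± 0.083. In Tm7sf2 the day 28 signals were 9.57, 9.56, 9.51 and 9.53 and those at day 18 8.19, 8.16, 8.48 and 8.08, so the day 28 pools spanned 0.060 and lay clear of day 18. The mevalonate enzymes Fdps, Idi1 and Lss rose by 0.96 ± 0.10, 0.66 ± 0.078 and 0.66 ± 0.090, and Me1 and Acly, which supply NADPH and acetyl-CoA, by 1.27 ± 0.12 and 0.82 ± 0.071. The elongase Elovl7 fell by 0.92 ± 0.17 and the sterol exporter Abcg1 by 0.55 ± 0.090. The letters TCACNCCAC of the sterol regulatory element (N is any base) were also searched on both strands. They were found in 0 of the 34 genes of this list with a promoter window and in 1.13% of all 27457 windows. At so low a share, 0 matches among 34 windows cannot set this list apart from all windows. Among adipocyte genes, which share Scd with the list above, 13 of 32 rose while 2 fell (40.6% and 6.25%). The falls numbered 0 without day 28 replicate 3 or day 18 replicate 1 or 4, and 1 without day 28 replicate 1 or 2, day 18 replicate 2 or 3, any pool of day 7 or day 60 replicate 1. Their mean level was 6.59 to 7.43 over the 4 adipocyte markers in day 28 pools and 5.75 to 6.75 in day 18 pools. Of these 4 markers Lep and Plin1 rose, by 0.65 ± 0.17 and 0.49 ± 0.16, and Cidec (0.70 ± 0.25, adjusted p = 0.0516) and Adipoq did not pass. Plin1 did not pass without day 28 replicate 1, 2 or 4 or day 18 replicate 1 or 2 (adjusted p 0.0506 to 0.112), and Cidec passed without day 28 replicate 3 or day 18 replicate 3 or 4 (0.0201 to 0.0373) and after quantile normalization or centring (0.0459 and 0.0497). Adipoq, an adipokine that defines the cell type, had signals of 8.403, 8.93, 8.11 and 9.17 at day 28 and 6.74, 7.66, 8.26 and 8.76 at day 18 with overlap between the ages (adjusted p = 0.125, but 0.0339 without day 18 replicate 4). The part of adhering fat in the rises of lipid genes was not tested.

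Genes of glutathione and amino acid metabolism moved in both directions. Slc7a11, which exchanges glutamate for cystine, had signals of 8.896, 9.04, 9.06 and 9.19 at day 28 and 5.79, 6.09, 6.39 and 6.34 at day 18, a rise of 2.89 ± 0.12 (limma's adjusted p = 1.17e-09). Cth, which makes cysteine from cystathionine, had signals of 10.17, 10.17, 10.36 and 10.25 at day 28 and 8.61, 8.499, 8.91 and 8.59 at day 18, a rise of 1.58 ± 0.096. The ages were 2.502 apart for Slc7a11 and 1.26 apart for Cth. Gclc, of the rate-limiting step of glutathione synthesis, rose by 0.69 ± 0.089, and the glutathione transferases Mgst2 and Gsta1 by 1.14 ± 0.15 and 1.14 ± 0.092. Gstm5 and the catalase gene Cat fell by 1.08 ± 0.092 and 0.54 ± 0.087, and the metallothionein Mt1 by 0.73 ± 0.075. Over all glutathione and antioxidant genes 17 of 60 rose while 10 fell (28.3% and 16.7%). In amino acid and polyamine metabolism 15 of 45 rose while 8 fell (33.3% and 17.8%). Odc1, which starts polyamine synthesis, rose by 1.04 ± 0.075 and Sat1, which degrades polyamines, by 0.79 ± 0.079, whereas the urea cycle genes Ass1 and Asl fell by 2.54 ± 0.13 and 0.40 ± 0.077.

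Carriers of organic solutes and ions rose in 29 of 70 cases and fell in 9 (41.4% and 12.9%, median 0.17). Slc34a2, a phosphate carrier of apical membranes, rose by 2.003 ± 0.11, Slc39a8, a zinc and manganese importer, by 1.99 ± 0.10 and Slc22a5, the carnitine carrier, by 1.66 ± 0.085. Slc38a3, which carries glutamine, had signals of 6.67, 6.46, 6.43 and 6.701 at day 28 and 7.32, 8.15, 7.72 and 8.45 at day 18 and fell by 1.35 ± 0.21. Slc6a6 and Slc5a3, carriers of the osmolytes taurine and inositol, fell by 0.73 ± 0.097 and 0.36 ± 0.075. Among channels and ion carriers 21 of 66 rose while 12 fell (31.8% and 18.2%). Rises were seen in the sodium-proton exchangers Slc9a2 (1.21 ± 0.13) and Slc9a3 (1.03 ± 0.18) and in the potassium channel Kcnk2 (1.405 ± 0.13). Cftr, the chloride and bicarbonate channel, had signals of 7.06, 7.04, 7.02 and 7.11 at day 28 and 8.55, 8.695, 8.75 and 8.98 at day 18 and fell by 1.68 ± 0.11. Kcnj16, a potassium channel, fell by 1.93 ± 0.19 and Scnn1a, a subunit of the epithelial sodium channel, by 0.71 ± 0.11. In Cftr the day 28 pools spanned 0.094 and lay 1.43 below the lowest day 18 pool.

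Genes of clear and narrow cells were divided, and 10 of 37 rose while 10 fell (27% in each direction). Foxi1, the transcription factor that specifies proton-secreting cells, had signals of 8.49, 8.33, 8.601 and 8.62 at day 28 and 9.86, 9.82, 9.64 and 9.88 at day 18 and fell by 1.29 ± 0.087 (limma's adjusted p = 7.79e-08). The proton pump subunits Atp6v1b1 and Atp6v0a4, typical of these cells, fell by 0.42 ± 0.11 and 0.39 ± 0.10, and Kit fell by 0.98 ± 0.092. Rises were of Rhcg, an ammonia channel, by 1.56 ± 0.099, and of the carbonic anhydrases Car12 and Car14 by 0.92 ± 0.089 and 0.80 ± 0.13, which other epithelial cells also express. Of the 6 markers of these cells 3 fell, 1 rose and the others did not pass. Their mean level was 7.41 to 7.58 in day 28 pools and 7.81 to 7.94 in day 18 pools. Basal cell genes had 5 rises and 4 falls among 20 (25% and 20%), and 3 rises when the 8 pools were fitted alone or when day 28 replicate 3 or day 18 replicate 4 was left out. The keratins Krt15 and Krt14 of basal cells rose by 1.39 ± 0.17 and 0.94 ± 0.11, with Krt14 signals of 8.81, 8.497, 8.67 and 8.56 at day 28 and 7.79, 7.48, 8.03 and 7.47 at day 18, while Itgb6, an integrin subunit, fell by 1.41 ± 0.11. Ciliated cell genes had 4 rises and 7 falls among 30 (13.3% and 23.3%), and 2 rises and 4 falls without day 18 replicate 4; the rises were also 2 without day 28 replicate 3 or day 18 replicate 1 or 2.

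Genes of junctions and of simple epithelium fell more often than they rose. Of the tight junction genes 5 of 41 rose while 12 fell (12.2% and 29.3%). Cldn2, a claudin that lets cations and water pass, had signals of 8.08, 8.03, 7.895 and 8.22 at day 28 and 6.22, 5.71, 6.57 and 5.85 at day 18 and rose by 1.97 ± 0.16. Cldn6, a claudin of embryonic epithelia, had signals of 6.74, 6.83, 6.92 and 7.18 at day 28 and 8.99, 8.899, 8.84 and 9.04 at day 18 and fell by 2.03 ± 0.11. Both changes left the ages apart by more than 1 log2 unit. Cldn10 and Cldn4 fell by 0.90 ± 0.11 and 0.55 ± 0.11. Of the adherens, desmosome and gap junction genes 5 of 33 rose while 12 fell (15.2% and 36.4%), with falls of the kidney-type cadherin Cdh16 (1.09 ± 0.061), the adhesion molecule Epcam (0.75 ± 0.078) and the connexin Gja1 (0.43 ± 0.075). Of the keratin and polarity genes 6 of 36 rose while 12 fell (16.7% and 33.3%). Muc1, a membrane mucin, had signals of 7.06, 6.401, 6.95 and 6.94 at day 28 and 8.12, 7.93, 8.05 and 7.98 at day 18 and fell by 1.18 ± 0.12, and the keratins Krt19 and Krt7 of simple epithelia fell by 1.03 ± 0.084 and 0.80 ± 0.11.

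Among the largest falls after the first 10 were genes of signalling and metabolism with no common list. Arnt2, a partner of bHLH-PAS transcription factors, had signals of 8.64, 8.38, 8.42 and 8.52 at day 28 and 9.96, 10.195, 9.83 and 10.29 at day 18 and fell by 1.58 ± 0.10 (limma's adjusted p = 4.01e-08). Padi2, which converts arginine residues in proteins to citrulline, had signals of 8.06, 7.803, 8.19 and 8.29 at day 28 and 9.64, 9.74, 9.82 and 9.85 at day 18 and fell by 1.68 ± 0.13. Edn1, the contractile peptide endothelin, had signals of 6.89, 6.65, 6.94 and 6.97 at day 28 and 8.602, 8.47, 8.34 and 8.63 at day 18 and fell by 1.65 ± 0.10. In each of them all day 28 pools lay more than 1 unit below the day 18 pools. Dmtn, the actin-bundling protein dematin, fell by 1.69 ± 0.086, Ppp2r2b, a regulatory subunit of a protein phosphatase, fell by 1.67 ± 0.091, and Ampd3, an AMP deaminase, fell by 1.595 ± 0.12. Cyp2e1, a cytochrome P450, had signals of 4.03, 4.68, 3.95 and 4.48 at day 28 and 6.14, 6.45, 5.55 and 6.15 at day 18, and Ubd, a ubiquitin-like protein induced by cytokines, had signals of 4.75, 4.58, 5.07 and 4.94 at day 28 and 6.58, 6.82, 6.62 and 5.996 at day 18. The day 28 means of both lay under background, so the sizes of their differences, -1.79 ± 0.21 and -1.67 ± 0.27, are uncertain. Sema3d, a secreted guidance protein, fell by 1.61 ± 0.13 and Birc3, an inhibitor of apoptosis, by 1.53 ± 0.15.

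Most of the measured genes of cell division fell and none rose. For DNA replication 0 of 49 rose while 31 fell (0% and 63.3%, median -0.36), and for mitosis 0 of 75 rose while 56 fell (0% and 74.7%, median -0.44). Without day 28 replicate 2 the falls numbered 22 and 45. Chek1, a checkpoint kinase of S phase, had signals of 6.28, 5.95, 5.91 and 6.51 at day 28 and 6.99, 7.42, 7.16 and 7.04 at day 18 and fell by 0.99 ± 0.13 (limma's adjusted p = 4.09e-05). Mcm5, of the replicative helicase, had signals of 7.61, 7.67, 7.65 and 7.93 at day 28 and 8.32, 8.57, 8.49 and 8.56 at day 18 and fell by 0.77 ± 0.15, and its partners Mcm6, Mcm2 and Mcm7 fell by 0.75 ± 0.093, 0.74 ± 0.10 and 0.70 ± 0.092. Ncapg, of the condensin complex, had signals of 6.29, 6.13, 6.29 and 6.51 at day 28 and 7.099, 7.07, 6.82 and 7.13 at day 18 and fell by 0.72 ± 0.099. The pools of the ages did not overlap in any of these 3 genes, and replicate 4 was the highest of the day 28 pools in each. Sgo2, which protects centromeric cohesion, fell by 0.87 ± 0.15, Aurkb, a mitotic kinase, fell by 0.80 ± 0.11, and the proliferation antigen gene Mki67 by 0.42 ± 0.085. Inhibitors of the cell cycle did not rise as a group: 3 of 18 rose while 7 fell (16.7% and 38.9%), with 4 falls without day 28 replicate 2, and Cdkn1a fell by 0.56 ± 0.10.

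Replication genes are known targets of E2F factors, and mitotic genes of a complex that binds the cell cycle homology region. The E2F letters searched were TTTCCCGC and TTTGGCGC, on both strands, and they were found in 15 of the 40 replication genes with a window (37.5%), against 1.53% of all 27457 windows. Of these 15 genes 10 fell and 5 did not pass, and over the whole replication list 31 of 49 fell. The homology region letters TTTGAA were found in 46 of the 64 mitosis genes with a window (71.9%), against 18.1% of all windows. Of the 46, 35 fell while 11 did not pass, and over the whole mitosis list 56 of 75 fell. Whether genes with the letters fell more often than those without was not tested. A match describes letters and shows no binding in these pools. The windows of Mcm5 and Chek1 show the E2F letters in capitals, and those of Ncapg and Tacc3, whose product anchors spindle microtubules and which fell by 0.68 ± 0.11, show the homology region.
Mcm5, GRCr8 chr19:13488563-13488862, plus strand: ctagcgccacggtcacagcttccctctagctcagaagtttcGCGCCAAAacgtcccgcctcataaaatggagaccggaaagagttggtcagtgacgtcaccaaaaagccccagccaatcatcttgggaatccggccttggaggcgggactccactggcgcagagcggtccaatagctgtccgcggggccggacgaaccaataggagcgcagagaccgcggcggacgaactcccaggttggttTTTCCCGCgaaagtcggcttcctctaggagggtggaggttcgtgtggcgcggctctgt
Chek1, GRCr8 chr8:44629794-44630093, minus strand: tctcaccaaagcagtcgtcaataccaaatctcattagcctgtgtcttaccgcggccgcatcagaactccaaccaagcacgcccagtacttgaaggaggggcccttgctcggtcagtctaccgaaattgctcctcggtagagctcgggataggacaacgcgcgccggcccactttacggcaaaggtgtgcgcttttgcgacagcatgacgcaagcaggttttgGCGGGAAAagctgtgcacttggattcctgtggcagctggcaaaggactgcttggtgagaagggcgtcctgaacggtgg
Ncapg, GRCr8 chr14:69645396-69645695, minus strand: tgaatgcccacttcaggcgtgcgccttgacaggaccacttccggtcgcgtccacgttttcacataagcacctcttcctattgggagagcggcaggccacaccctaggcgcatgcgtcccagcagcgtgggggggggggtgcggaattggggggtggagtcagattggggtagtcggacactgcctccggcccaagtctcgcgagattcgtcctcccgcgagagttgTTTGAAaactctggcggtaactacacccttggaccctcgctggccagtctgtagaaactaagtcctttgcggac
Tacc3, GRCr8 chr14:81289649-81289948, minus strand: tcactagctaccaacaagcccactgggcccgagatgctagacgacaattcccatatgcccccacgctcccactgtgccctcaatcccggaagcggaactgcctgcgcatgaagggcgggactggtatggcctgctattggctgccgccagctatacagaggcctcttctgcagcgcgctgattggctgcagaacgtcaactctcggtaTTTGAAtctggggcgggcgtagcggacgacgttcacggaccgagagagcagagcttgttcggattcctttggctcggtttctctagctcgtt

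Cytosolic ribosomal protein genes fell by small amounts in most cases, and 0 of 56 rose while 39 fell (0% and 69.6%, median -0.34). Rps27 had signals of 7.095, 6.78, 7.12 and 7.17 at day 28 and 7.96, 7.99, 7.65 and 7.48 at day 18 and fell by 0.73 ± 0.12, and Rpl3 had signals of 11.203, 11.08, 11.25 and 11.25 at day 28 and 11.67, 11.71, 11.61 and 11.72 at day 18 and fell by 0.48 ± 0.063. The ages did not overlap in either gene, and day 28 replicate 2 was the lowest pool. Without that pool 36 fell. Genes of the mitochondrial respiratory chain showed 7 rises and 3 falls among 67 (10.4% and 4.48%), a share of rises near that of all genes. These rises numbered 13 after quantile normalization or centring and 3 without day 18 replicate 2, and the falls 0 without day 28 replicate 2 or 3 or day 18 replicate 1 or 2, and 1 without day 28 replicate 1 or day 18 replicate 3; without day 18 replicate 4 there were 4 rises. Heat shock genes had 4 rises and 6 falls among 21 (19% and 28.6%), with a fall of 0.76 ± 0.087 for the small heat shock protein Cryab, and the rises numbered 1 without day 18 replicate 1 and 2 without day 28 replicate 3 or day 18 replicate 3 or 4.

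Most interferon-stimulated genes, which restrict viruses, fell. Of 47 measured, 27 fell and 1 rose (57.4% and 2.13%, median -0.40), with 2 rises without day 18 replicate 2. Ifgga4l, of the interferon-inducible GTPases, had signals of 5.81, 5.97, 6.29 and 6.19 at day 28 and 8.001, 8.22, 7.93 and 7.77 at day 18 and fell by 1.92 ± 0.12 (limma's adjusted p = 2.82e-08). Oasl2, which resembles the oligoadenylate synthetases, had signals of 6.39, 6.97, 6.903 and 7.31 at day 28 and 7.96, 8.22, 7.67 and 7.96 at day 18 and fell by 1.06 ± 0.16. Ifitm3, which blocks entry of viruses, had signals of 9.47, 9.59, 9.62 and 9.62 at day 28 and 10.202, 10.25, 10.24 and 10.27 at day 18 and fell by 0.67 ± 0.062. The groups did not overlap in these 3 genes, and the day 18 pools of Ifitm3 spanned 0.072. Ifit1 and the chemokine Cxcl10 fell by 1.02 ± 0.19 and 0.79 ± 0.092, Isg20, a nuclease, rose by 0.56 ± 0.10, and Irf7, a factor that drives such genes, did not pass (-0.18 ± 0.12, adjusted p = 0.303). Interferon-stimulated genes are known for the response element GAAA, 2 bases and GAAA again. A share over the list is void, because only 37 of its 47 measured genes (78.7%) had a promoter window, but the element, present in 3.77% of all 27457 windows, is shown in capitals for Oasl2 and Ifitm3, in opposite orientations.
Oasl2, GRCr8 chr12:47383136-47383435, minus strand: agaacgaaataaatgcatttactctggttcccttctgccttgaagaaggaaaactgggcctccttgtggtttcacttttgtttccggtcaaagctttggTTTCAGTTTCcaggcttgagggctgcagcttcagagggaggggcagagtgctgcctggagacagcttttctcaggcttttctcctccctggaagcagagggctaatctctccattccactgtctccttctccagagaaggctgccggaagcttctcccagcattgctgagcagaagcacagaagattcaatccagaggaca
Ifitm3, GRCr8 chr1:205541709-205542008, minus strand: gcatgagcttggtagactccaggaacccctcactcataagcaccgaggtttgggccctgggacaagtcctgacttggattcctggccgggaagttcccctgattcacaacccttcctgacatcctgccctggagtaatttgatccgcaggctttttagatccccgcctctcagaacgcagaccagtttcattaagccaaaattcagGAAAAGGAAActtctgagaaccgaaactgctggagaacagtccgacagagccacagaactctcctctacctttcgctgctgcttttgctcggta

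Other immune lists had smaller shares of falls. Of the genes of MHC class II and antigen presentation 2 of 35 rose while 9 fell (5.71% and 25.7%), with falls of the immunoproteasome subunits Psmb10 (0.76 ± 0.081) and Psmb9 (0.46 ± 0.082). The 2 rises became 0 without day 28 replicate 3 or day 18 replicate 2 or 3, and 1 without day 28 replicate 4 or day 18 replicate 1. Macrophage and granulocyte genes had 11 falls and 1 rise among 47 (23.4% and 2.13%), among them the complement component genes C1qa, C1qb and C1qc (differences of -0.57 ± 0.086, -0.56 ± 0.071 and -0.42 ± 0.077), while Cd163, a scavenger receptor of resident macrophages, rose by 0.37 ± 0.087. The largest fall of the macrophage and granulocyte list was that of Kit, which is also counted among clear and narrow cell genes. The mean level of 5 macrophage markers overlapped between the ages, at 7.08 to 7.25 in day 28 pools and 7.23 to 7.53 in day 18 pools. Lymphocyte genes showed 5 falls and 0 rises among 43 for T and natural killer cells, and 2 falls and 1 rise among 20 for B and plasma cells. These shares of falls, 11.6% and 10%, were under the 14.3% of all genes. The 5 falls of T and natural killer cell genes became 1 without day 28 replicate 3 or day 18 replicate 1, 2 without day 28 replicate 1 or day 18 replicate 2 or 3, and 3 without day 28 replicate 2. The single rises among macrophage, B cell and immediate early genes became 2 when some single pools were left out (day 18 replicate 3 for macrophage genes, day 28 replicate 4, day 18 replicate 1 or day 60 replicate 1 for B cell genes, and day 18 replicate 3 or day 7 replicate 1 or 3 for immediate early genes), and T and natural killer cell genes had 1 rise without day 18 replicate 2, day 7 replicate 3 or day 60 replicate 2. In complement and innate defence 9 of 49 rose while 10 fell (18.4% and 20.4%), and the central complement component C3 fell by 1.02 ± 0.093. Immediate early genes, which respond within minutes to stimuli and to handling of tissue, had 15 falls and 1 rise among 37 (40.5% and 2.7%). Fos had signals of 5.99, 5.72, 6.34 and 6.16 at day 28 and 7.01, 6.73, 6.84 and 6.996 at day 18 and fell by 0.84 ± 0.14, and Egr1 had signals of 8.43, 8.16, 8.49 and 8.33 at day 28 and 9.100, 8.98, 9.15 and 9.28 at day 18 and fell by 0.78 ± 0.13; the ages were apart in both. Nr4a3, a nuclear receptor, rose by 0.52 ± 0.14.

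Genes of the muscular wall had rises and no falls. Of the smooth muscle genes 21 of 38 rose while 0 fell (55.3% and 0%, median 0.31), and without day 28 replicate 2 the rises numbered 22. Myh11, the myosin heavy chain of smooth muscle, had signals of 11.21, 10.800, 10.95 and 10.79 at day 28 and 9.802, 10.16, 10.14 and 9.83 at day 18, a rise of 0.96 ± 0.14 (limma's adjusted p = 0.000143). Oxtr, the oxytocin receptor, which contracts the duct, had signals of 6.54, 6.89, 6.47 and 6.95 at day 28 and 5.55, 5.74, 5.48 and 5.48 at day 18, a rise of 1.15 ± 0.13. Day 28 replicate 1 was the highest pool for Myh11 and replicate 4 for Oxtr, and neither gene overlapped between the ages. Mylk, the kinase that activates myosin, rose by 0.79 ± 0.093, Kcnmb1, a subunit of the large potassium channel of muscle, by 0.90 ± 0.13, and the coactivator Myocd, which drives the muscle program, by 0.47 ± 0.13. Of the 31 smooth muscle genes with a window, 1 (Ldb3) held the letters of the CArG box, which were in 1.64% of all windows. The rise of Ldb3 (0.32 ± 0.093) did not pass without day 28 replicate 1 or without day 18 replicate 1 or 4 (adjusted p 0.0602 to 0.0725).

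The 2 microRNA genes Mir145 and Mir143, neighbours in the genome and known from smooth muscle, rose at least 2-fold. Mir145 had signals of 6.199, 5.03, 5.72 and 5.53 at day 28 and 3.32, 4.09, 3.89 and 3.22 at day 18, a rise of 1.99 ± 0.29 (limma's adjusted p = 0.000165), and Mir143 had signals of 7.73, 7.301, 7.51 and 7.39 at day 28 and 5.83, 6.74, 6.29 and 6.77 at day 18, a rise of 1.07 ± 0.22 (adjusted p = 0.00262). Mir145 was under background in every day 18 pool, so its size is uncertain, and Mir143 was above it throughout. The array's clusters measure RNA of the gene locus and do not separate precursor from mature forms. The mature arms are shown with the seed, bases 2 to 8, in capitals, because the 4 seeds differ and each arm would pair with a different set of target sites.
rno-miR-145-5p, GRCr8 chr18:57370033-57370055, minus strand: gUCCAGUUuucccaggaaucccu
rno-miR-145-3p, GRCr8 chr18:57369997-57370017, minus strand: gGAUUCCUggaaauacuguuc
rno-miR-143-3p, GRCr8 chr18:57371373-57371394, minus strand: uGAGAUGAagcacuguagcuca
rno-miR-143-5p, GRCr8 chr18:57371408-57371428, minus strand: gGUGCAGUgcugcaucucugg

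Of 363 microRNA genes tested, 23 rose (6.34%) and 2 fell, against 10.5% and 14.3% of all genes, and 20 rose without day 28 replicate 2. Most microRNA clusters were dim: 86 lay above background at day 28, and 10 of the called ones were among them. Mir27b, named with Mir98 and Mirlet7d after their values were seen, rose by 0.70 ± 0.17, with signals of 5.01, 4.94, 5.03 and 4.83 at day 28 and 3.897, 4.31, 4.12 and 4.701 at day 18. All of these pools but day 28 replicate 3 lay under background, so the size is uncertain. Mir98 had signals of 4.99, 5.77, 4.87 and 4.93 at day 28 and 4.34, 4.58, 4.64 and 4.79 at day 18 and rose by 0.55 ± 0.18 (adjusted p = 0.0393), with day 28 replicate 2 the highest pool and the only one of them above background. It did not pass without that pool (adjusted p = 0.0938), nor without day 18 replicate 1, 2 or 3 (0.0611 to 0.110), nor when the 8 pools were fitted alone (0.0655), when arrays were weighted (0.0705) or with a block for replicate number (0.0593). Mirlet7d, of the let-7 family, had signals of 3.695, 3.67, 3.11 and 3.63 at day 28 and 3.21, 3.41, 2.797 and 2.97 at day 18, under background and with overlap, and rose by 0.43 ± 0.15 (adjusted p = 0.0459). It did not pass on leaving out any one of day 28 replicates 1, 2 and 4, day 18 replicates 1, 3 and 4 and the 6 pools of day 7 and day 60 (adjusted p 0.0502 to 0.132), nor in 6 other settings, among them quantile normalization (0.0701). The 5p arms of Mir98 and Mirlet7d share a seed, shown in capitals.
rno-miR-98-5p, GRCr8 chrX:24460663-24460684, plus strand: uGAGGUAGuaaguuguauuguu
rno-let-7d-5p, GRCr8 chr17:16322273-16322294, plus strand: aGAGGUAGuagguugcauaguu

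Other stromal genes were mixed. Of the endothelial and pericyte genes 9 of 30 rose while 1 fell (30% and 3.33%), with 3 falls without day 18 replicate 4. Vwf, the clotting factor of vessel walls, had signals of 6.66, 6.41, 6.69 and 6.61 at day 28 and 5.81, 5.49, 5.96 and 5.64 at day 18 and rose by 0.87 ± 0.10; Rgs5, of pericytes, rose by 0.67 ± 0.094, and Prox1, of lymphatic vessels, fell by 0.41 ± 0.094. Of the extracellular matrix genes 12 of 70 rose while 6 fell (17.1% and 8.57%), and with an intensity trend and robust variance the rises numbered 19. Col15a1 and Col12a1 rose by 0.77 ± 0.10 and 0.70 ± 0.11, and P4ha3, which hydroxylates collagen, fell by 0.84 ± 0.15. Nerve and Schwann cell genes had 5 rises and 6 falls among 30 (16.7% and 20%), with Th, of noradrenaline synthesis, up by 0.95 ± 0.24, while L1cam, an adhesion molecule of axons, fell by 1.0 ± 0.13. Red blood cell genes had 1 rise and 2 falls among 23 (4.35% and 8.7%, under the 10.5% and 14.3% of all genes).

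Most measured genes of the mesothelium fell: 10 of 17 fell and 1 rose (58.8% and 5.88%, median -0.27). The falls include Krt19 and C3, which are also counted above among keratin and polarity genes and complement genes. Msln, mesothelin, had signals of 5.38, 5.92, 5.74 and 5.69 at day 28 and 6.72, 6.75, 6.76 and 6.498 at day 18 and fell by 1.0 ± 0.13 (limma's adjusted p = 3.94e-05). Gpm6a, a membrane glycoprotein, had signals of 4.65, 4.58, 5.78 and 4.93 at day 28 and 6.19, 6.81, 6.52 and 6.86 at day 18 and fell by 1.61 ± 0.23, with day 28 replicate 3 the highest of its age and the other 3 day 28 pools under background. Upk3b and Lrrn4, other mesothelial markers, fell by 0.95 ± 0.17 and 1.34 ± 0.19. The mean level of the 4 markers was 5.33 to 5.82 in day 28 pools and 6.47 to 6.76 in day 18 pools. The amount of mesothelium per organ was not measured.

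**Figure D5:**
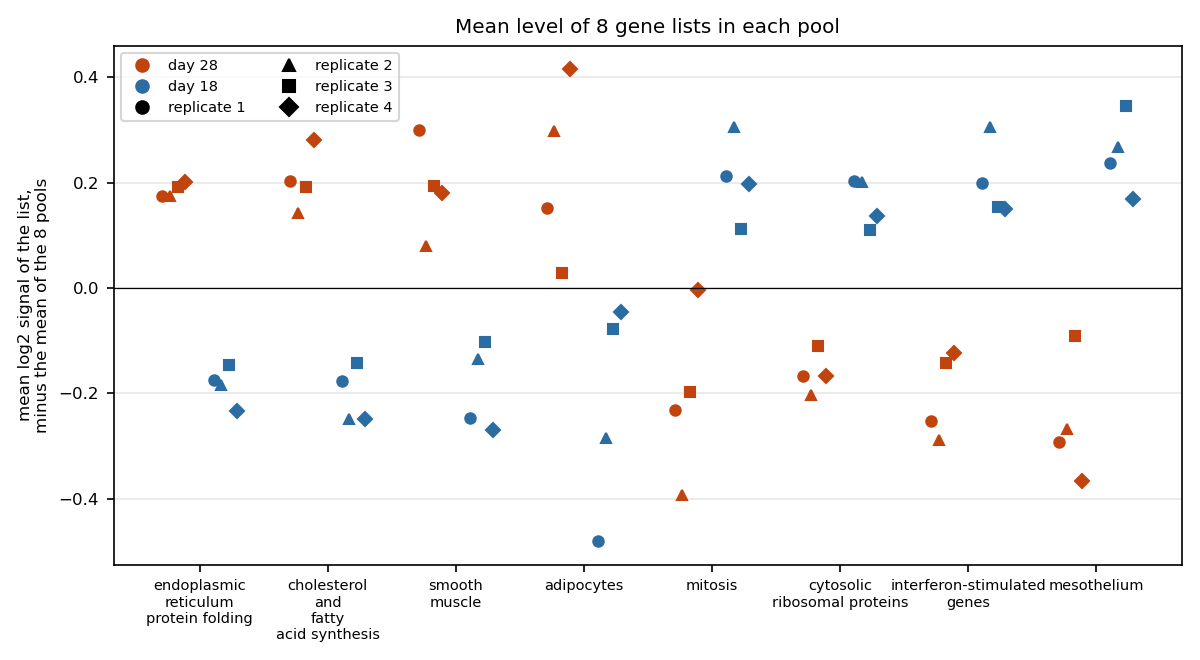
Mean log2 signal of the measured members of 8 gene lists in each pool, minus the mean of the 8 pools, with day 28 (orange) left of day 18 (blue) and the replicate number as the symbol. The ages are apart in all 8 lists; adipocyte genes spread most within an age, and day 28 replicate 2 is the lowest pool for mitosis and interferon-stimulated genes.

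Growth and patterning genes moved in both directions. Fetal and imprinted growth genes fell more often than they rose (2 of 24 rose while 10 fell, or 8.33% and 41.7%). Igf2bp2, an RNA-binding protein of fetal growth, had signals of 6.99, 6.44, 6.99 and 6.88 at day 28 and 8.34, 8.38, 8.18 and 8.41 at day 18 and fell by 1.502 ± 0.13, and Igf2, the fetal growth factor, had signals of 7.59, 7.48, 7.51 and 7.71 at day 28 and 8.72, 8.64, 8.58 and 8.604 at day 18 and fell by 1.06 ± 0.075. The nearest pools of the ages were 1.19 apart for Igf2bp2 and 0.87 apart for Igf2. Among growth factors and receptors 20 of 74 rose while 23 fell (27% and 31.1%). Gfra2 and Gfra1, receptors of the GDNF family, rose by 0.95 ± 0.083 and 0.88 ± 0.085, and Igf1 by 0.65 ± 0.080. Met, the receptor of hepatocyte growth factor, fell by 1.19 ± 0.11, Pdgfc by 1.08 ± 0.090 and Fgfr2 by 0.86 ± 0.073. Shh, the hedgehog ligand, which was named after its values were seen, had signals of 7.99, 7.95, 8.14 and 8.18 at day 28 and 9.57, 9.44, 9.38 and 9.56 at day 18 and fell by 1.43 ± 0.082 (limma's adjusted p = 1.33e-08).

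Of the Wnt genes 10 of 61 rose while 14 fell (16.4% and 23%). Wnt9b, a ligand of the embryonic duct, had signals of 4.96, 5.16, 5.33 and 5.78 at day 28 and 7.79, 8.08, 7.36 and 7.97 at day 18 and fell by 2.49 ± 0.16. The stromal ligand Wnt5a had signals of 8.899, 8.66, 8.79 and 8.84 at day 28 and 7.63, 7.796, 7.91 and 7.66 at day 18 and rose by 1.05 ± 0.079. The 2 ligands thus moved in opposite directions, with the ages apart in each. Sfrp2, a secreted Wnt modulator, rose by 1.17 ± 0.13, and the Wnt targets Lgr5 and Axin2 fell by 0.94 ± 0.095 and 0.61 ± 0.071. Of the BMP, activin and Notch genes 10 of 63 rose while 9 fell (15.9% and 14.3%, against 10.5% and 14.3% of all genes). Rises were seen in the antagonists Fstl3 (0.96 ± 0.13) and Nog (0.79 ± 0.12). Of the transcription factors of the duct 6 of 62 rose while 17 fell (9.68% and 27.4%), among them Lhx1, needed for the embryonic duct in mouse, which fell by 0.94 ± 0.15, and Pax2, which rose by 0.41 ± 0.066. Hox genes had 7 rises and 5 falls among 31 (22.6% and 16.1%), and 4 and 3 without day 28 replicate 2 (4 rises without day 18 replicate 3, and 3 falls without day 18 replicate 1 or 4), with Hoxa5 up by 0.80 ± 0.097.

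Genes of androgen signalling and response had 14 rises and 9 falls among 63 (22.2% and 14.3%, against 10.5% and 14.3% of all genes). Fkbp5, a cochaperone induced by androgens and glucocorticoids, had signals of 9.89, 9.89, 9.95 and 9.99 at day 28 and 9.21, 9.33, 9.23 and 9.12 at day 18 and rose by 0.70 ± 0.068. Esr1, an oestrogen receptor, fell by 0.59 ± 0.16, with signals of 7.22, 6.91, 7.03 and 7.19 at day 28 and 7.395, 7.53, 7.78 and 7.996 at day 18; day 18 replicate 4 was the highest pool, and the nearest pools of the ages were 0.18 apart. Tsc22d3, a gene induced by glucocorticoids, fell by 0.79 ± 0.10. Of the retinoid genes 7 of 31 rose while 4 fell (22.6% and 12.9%). Rdh16, a retinol dehydrogenase, rose by 1.47 ± 0.12 and Lrat, which stores retinol as esters, by 0.84 ± 0.093, while the receptors Rara and Rarg fell by 0.64 ± 0.080 and 0.46 ± 0.11; the falls numbered 2 without day 18 replicate 3. Of the eicosanoid genes 6 of 37 rose while 6 fell (16.2% in each direction): Cyp4f4, which hydroxylates leukotrienes, had signals of 8.18, 8.24, 8.12 and 8.31 at day 28 and 5.72, 5.29, 5.84 and 5.99 at day 18 and rose by 2.51 ± 0.13, Ptgds by 0.81 ± 0.12, and the lipoxygenases Alox15b and Alox15 fell by 2.25 ± 0.16 and 1.82 ± 0.15.

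Genes named for the testis were also counted. Of the germ cell and sperm genes 8 of 50 rose while 0 fell (16% and 0%), and 6 rose without day 28 replicate 2. Apart from Tex101, Ddx4, an RNA helicase of germ cells, had signals of 5.21, 4.78, 5.22 and 5.13 at day 28 and 4.13, 3.46, 3.91 and 3.76 at day 18, a rise of 1.27 ± 0.15 around the background level. Ldhc and Pgk2, glycolytic enzymes of sperm, rose by 0.99 ± 0.26 and 0.85 ± 0.22. The 7 haploid markers did not pass, with differences from -0.24 (Akap4) to 0.35 (Smcp), although Smcp passed without day 28 replicate 1 (adjusted p = 0.0267). Of the genes of Leydig and Sertoli cells 5 of 21 rose while 4 fell (23.8% and 19%). Tsx, a gene of mouse Sertoli and germ cells, had signals of 9.201, 9.21, 9.37 and 9.38 at day 28 and 7.14, 6.79, 7.65 and 6.72 at day 18 and rose by 2.21 ± 0.20, whereas Insl3, a Leydig cell hormone, had signals of 6.300, 7.12, 6.59 and 6.69 at day 28 and 6.37, 6.14, 6.48 and 6.53 at day 18 that overlapped between the ages (adjusted p = 0.175, but 0.0462 without day 28 replicate 1).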

How the data were processed

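The deposited values are log2 signals, 1 for each array and transcript cluster, made by the authors with RMA and the Transcriptome Analysis Console, per the submitters' processing notes; settings and annotation version are not given in the sources used here. RMA gives arrays near-equal distributions, so differences are relative within an array. Of 36685 clusters, 18511 had 1 symbol in the platform annotation (18394 matched RefSeq), 575 had several and 17599 were not listed. Each gene was represented by its brightest cluster on average over the 14 arrays, which left 18166 genes, with no filter on level. limma 3.58.1 in R 4.3.3 (lmFit, eBayes) fitted a mean for each of the 4 ages to all 14 pools. Day 28 minus day 18 was tested two-sided, with Benjamini-Hochberg adjustment over all genes and a threshold of 0.05. The value after ± is the SE for a difference and the SD (n = 4) for a mean. The procedure was tested on simulated data. The number of arrays limits the precision.

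The rule for naming genes took the 30 largest rises and falls of at least 2-fold with no overlap of pools (2 predicted loci passed over), for each of 53 lists the 5 genes called with the largest rises and the 5 with the largest falls (2275 of 2603 memberships measured), the 15 genes with the largest SD at day 28 and the cell type markers; values are printed for a selection of these, and other list members appear as examples. Members and lists were chosen with earlier results of these data known. Counts stand in place of list tests. Sequences are from RefSeq, build GRCr8, in which 14503 of the genes had a promoter window and 24 of the called microRNA genes a mature sequence. Markers such as Krt5, Foxj1, Acta2 and Pecam1 were not among the genes tested and are not analysed here. Other settings tried were quantile normalization, centred medians, a level filter, an intensity trend with robust variance, a fit of the 8 pools alone, a block for replicate number, weights on arrays, averaged clusters, a test of all clusters, a fold of at least 1.5, and the removal of each pool in turn. Replicate numbers did not pair the pools.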

Additional observations from a re-analysis of the deposited data

Results flagged for a closer look

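In groups of 4 pools, a pool was picked out where its distance to the nearest other pool as a share of the range of its age exceeded Dixon's critical value for 4 samples, which chance gives in about 1 of 20 groups. Among the genes named above this held for 33 of 534 groups (6.18%), 14 of them at day 28. The log2 signals that follow are those of the pool that lay apart, with the range of the other 3 pools of that age.

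Replicate 1 of day 28 was the highest pool for Myocd with 8.04 (others 7.82 to 7.85). Replicate 1 of day 28 was the lowest pool for Ang with 6.84 (others 7.296 to 7.35), Cstdc2 with 8.48 (others 10.03 to 10.24) and Igf1 with 10.395 (others 10.53 to 10.56). It was the lowest as well for Prm2 with 5.998 (others 6.32 to 6.32). Replicate 2 of day 28 was the highest pool for Mir98 with 5.77 (others 4.87 to 4.99). Replicate 2 of day 28 was the lowest pool for L1cam with 5.62 (others 5.999 to 6.06), Lgr5 with 6.68 (others 6.92 to 6.95) and Sgo2 with 4.72 (others 5.34 to 5.35). Replicate 3 of day 28 was the lowest pool for Mirlet7d with 3.11 (others 3.63 to 3.695). Replicate 4 of day 28 was the highest pool for Fstl3 with 8.73 (others 8.16 to 8.24). Replicate 4 of day 28 was the lowest pool for Defb28 with 6.61 (others 7.22 to 7.25), Lrrn4 with 4.897 (others 5.53 to 5.64) and Tex101 with 9.04 (others 9.48 to 9.52).

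Replicate 1 of day 18 was the highest pool for Krt19 with 10.64 (others 10.38 to 10.41). Replicate 1 of day 18 was the lowest pool for Manba with 8.896 (others 9.21 to 9.26), Mme with 7.07 (others 7.38 to 7.404) and Slc39a8 with 9.79 (others 10.15 to 10.21). It was the lowest as well for Slc5a3 with 7.06 (others 7.27 to 7.303). Replicate 2 of day 18 was the highest pool for Nr4a3 with 6.17 (others 5.701 to 5.76). Replicate 2 of day 18 was the lowest pool for Rara with 8.83 (others 8.998 to 9.01) and Wfdc21 with 7.44 (others 7.87 to 7.902). Replicate 3 of day 18 was the highest pool for Crisp1 with 8.11 (others 7.57 to 7.59), Ltf with 8.66 (others 8.03 to 8.09) and Mfge8 with 10.82 (others 10.69 to 10.69). It was the highest as well for Pate10 with 7.92 (others 6.37 to 6.45), Pate3 with 8.89 (others 8.09 to 8.21) and Pate6l with 11.26 (others 11.09 to 11.11). The same pool was also highest for Slc22a5 with 9.24 (others 8.87 to 8.900). Replicate 3 of day 18 was the lowest pool for Smcp with 3.18 (others 3.58 to 3.64). Replicate 4 of day 18 was the lowest pool for Mcm2 with 8.53 (others 8.597 to 8.599), Msln with 6.498 (others 6.72 to 6.76) and Tmed6 with 8.03 (others 8.13 to 8.14).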

How the results depend on the processing

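The 1899 higher and 2592 lower genes stayed within 1.5 times of these counts under all settings tried except a test against a minimum fold of 1.5, which called 290 and 112. Genes at least 2-fold lower numbered 324 when every cluster was tested instead of 110, the added ones being mostly clusters with no symbol. Centring each array gave 2266 higher and 2309 lower. Leaving out each pool in turn gave 1617 to 1938 higher, 2022 to 2587 lower, 273 to 308 at least 2-fold higher and 103 to 126 at least 2-fold lower. With the replicate number as a block (replicate block) the counts were 1803 and 2398; pools of the same number in the 2 ages had correlations of deviations from -0.143 to 0.0127, so the numbers do not pair them. Of the 254 named genes that were called, 247 kept the call under every setting other than the minimum fold, and 0 changed direction in any of the settings. With 4 pools per age the number of arrays limits the precision, and the median SE of 0.103 means that small differences can be missed. Dim genes are limited by background: 44 of the rises of at least 2-fold began there.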

Other observations

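Clusters without a symbol were left out above. Among the 17599 clusters that the annotation does not list, 465 were higher and 861 lower at day 28 when every cluster was tested in 1 fit, and 79 were at least 2-fold higher and 208 at least 2-fold lower. Large falls thus outnumbered large rises among unlisted clusters, whereas among the 18511 clusters with 1 symbol 288 were at least 2-fold higher and 112 at least 2-fold lower. The unlisted clusters had a median level of 4.39 at day 28 and 4.31 at day 18, under the background level. What these clusters measure was not analysed here.

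Day 28 replicate 2 differed from the other day 28 pools according to signal level. The genes were put in 5 classes of equal size by their day 28 level. From the dimmest to the brightest class the median difference of that pool from the mean of the other 3 pools was 0.10, 0.12, -0.14, -0.18 and -0.11. The median difference between the ages within these classes ran from -0.080 to 0.041 with that pool and from -0.040 to 0.017 without it.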
